A study of Mus musculus with 18 samples.

Results

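The 10 genes described here make up the core of the major histocompatibility complex (MHC) class II pathway of antigen presentation: H2-Aa, H2-Ab1, H2-Eb1, Cd74, Ciita, H2-DMa, H2-DMb1, H2-DMb2, H2-Oa and H2-Ob. They were chosen by symbol and not by a threshold on their values, although earlier results of these data were known, and all 10 were found among the 25124 genes counted in each adipose depot. The libraries came from inguinal white (iWAT), epididymal white (eWAT) and brown adipose tissue (BAT) of male mice on a C57BL/6J background. Wildtype (WT) littermates were compared with global caspase-6 knockout (C6KO) mice, both offspring of heterozygous parents. Every mouse was fed a high fat diet (HFD, 60% of its energy as fat), started at 10 to 14 weeks of age and kept up for 12 weeks, and none was on another diet. Tissue was taken after a 10 h fast. Each combination of genotype and depot had 3 libraries, 18 altogether, which the labels call biological replicates, so the p-values below measure the spread between those libraries.

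Class II molecules display peptides from proteins that a cell has taken up, and CD4+ T cells read them. An alpha and a beta chain pair in the endoplasmic reticulum around the invariant chain, encoded by Cd74, which blocks the groove and steers the complex to endosomes. There the invariant chain is trimmed by proteases such as cathepsin S, the H2-DM dimer swaps its last fragment for a peptide, and H2-O restrains H2-DM, mainly in B cells. Class II expression in adipose tissue belongs chiefly to macrophages, dendritic cells and B cells, although adipocytes have been described to express it in obesity. Ciita encodes the main transactivator of class II genes. It does not bind DNA itself but docks on RFX, CREB and NF-Y proteins, which sit on the X and Y boxes of class II promoters, and interferon gamma induces it.

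In the deposited mm10 positions, 8 members lie within one stretch of chromosome 17. From one end of that stretch to the other they are H2-Oa (34092379 to 34095234), H2-DMa (34125518 to 34139101), H2-DMb2 (34145249 to 34151553), H2-DMb1 (34153191 to 34160229), H2-Ob (34238905 to 34245908), H2-Ab1 (34263227 to 34269418), H2-Aa (34282744 to 34287823, the only one on the minus strand) and H2-Eb1 (34305867 to 34316674). Ciita is on chromosome 16 (10480072 to 10527640). Each value counts the reads on the exons of 1 transcript per gene. C57BL/6 mice are known to lack a working alpha partner for H2-Eb1, and its pseudogene entry H2-Ea-ps had 1 count in total over the 18 libraries, while H2-Eb1 was counted in every one.

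RefSeq promoter windows in GRCm38.p6 (the assembly behind mm10), from 250 bases before to 50 bases after a start, were at hand for 7 of the 10 symbols, in 8 windows, since H2-DMa has 2. They were searched on both strands for the X box core, spelled AACNNATG, and the Y box core, spelled ATTGG, in which overlaps were allowed. The following 75-base stretches, each ending 15 bases after the Y core, are shown because they carry the letters on which Ciita's partners sit, with X cores, Y cores and the CREB-type element TGACGTCA in capitals.
H2-Eb1 (plus strand, chr17:34305753-34305827): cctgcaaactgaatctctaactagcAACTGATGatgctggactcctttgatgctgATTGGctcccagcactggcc
H2-DMb1 (plus strand, chr17:34153075-34153149): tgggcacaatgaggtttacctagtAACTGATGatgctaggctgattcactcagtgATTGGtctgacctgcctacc
H2-DMb2 (plus strand, chr17:34145104-34145178): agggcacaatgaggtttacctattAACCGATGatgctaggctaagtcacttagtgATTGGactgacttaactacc
H2-Ob (plus strand, chr17:34238793-34238867): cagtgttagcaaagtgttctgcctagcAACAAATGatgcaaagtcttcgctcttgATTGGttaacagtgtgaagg
H2-Aa (minus strand, chr17:34287852-34287926): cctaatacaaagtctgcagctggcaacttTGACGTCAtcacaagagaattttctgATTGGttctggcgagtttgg
H2-Oa (plus strand, chr17:34092281-34092355): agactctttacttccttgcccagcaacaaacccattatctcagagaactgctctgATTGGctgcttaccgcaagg

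An X core followed by a Y core 10 to 40 bases on was present in 4 of the 8 member windows, those of H2-Eb1, H2-DMb1, H2-DMb2 and H2-Ob, with 22, 23, 23 and 20 bases between the cores. The same arrangement was in 87 of all 32851 promoter windows, or 0.265%. The X core alone was in 8.864% of all windows and in 4 of the 8, the Y core alone in 37.408% and in 7 of the 8, and TGACGTCA in 1.79% and in 1 of the 8, that of H2-Aa. The H2-DMb1 and H2-DMb2 stretches are near copies of each other. Their transcripts overlap too, with 27.2% of the 50-base words of H2-DMb1 also found in H2-DMb2 (GENCODE M21), so the split of reads between the pair is uncertain. H2-Oa shares 21.7% of its words with the overlapping BC051537, and Ciita 0.195% with Dexi.

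BAT libraries held 7803108 to 12428683 counts, and those of white fat held more, 16717201 to 19139694 for eWAT and 16506034 to 19043523 for iWAT. Casp6 counts separated the genotypes in every depot. They were 289 to 342 in WT and 99 to 141 in C6KO iWAT, and 322 to 422 and 74 to 124 in eWAT. In BAT they were 127 to 145 and 26 to 71. By edgeR, Casp6 was called lower in eWAT (adjusted p = 0.0132) but not in iWAT (adjusted p = 0.0751) or BAT (adjusted p = 0.0671). The knocked-out gene itself thus missed the threshold in iWAT and BAT, so a gene not called there need not be unchanged. Markers of brown adipocytes such as Ucp1 were called higher in WT BAT than in both white depots for 6 of 6 genes, which matches the labelled tissue. A few libraries stood apart in ways that touched class II genes. eWAT WT-2 had the highest class II level of all, and eWAT WT-3, eWAT C6KO-3 and BAT WT-2 had the most B cell marker reads of their groups. iWAT C6KO-3 had 1593 CPM of summed macrophage markers (CPM are read counts scaled by TMM to a common library size), against 573 and 623 CPM in the other C6KO iWAT libraries and 2122 to 2445 CPM in WT.

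The question of where class II transcripts were most abundant was addressed first, in WT mice. In CPM per kilobase of transcript, Cd74 was the highest member in each depot, with 287 ± 19.3 in BAT, 712 ± 189 in iWAT and 2052 ± 1203 in eWAT (SD, n = 3). H2-Aa followed at 208 ± 35, 446 ± 121 and 1416 ± 969. H2-Ab1 averaged 137, 286 and 885 on this scale, and H2-Eb1 110, 224 and 719.8. The H2-DM genes were far lower, H2-DMb1 at 8.27, 37.2 and 73.1 and H2-DMa at 7.36, 14.2 and 42.0 in the same order of depots. Ciita had 1.35 ± 0.814, 3.35 ± 1.72 and 13.9 ± 9.39, and H2-DMb2, H2-Oa and H2-Ob stayed between 0.747 and 5.88 in their WT means. In all 10 genes, the WT mean was highest in eWAT, and the SD was largest there too except for H2-Ob, with 3.51 in BAT and 2.93 in eWAT. For H2-DMb2, the iWAT mean rests on another transcript than the means of eWAT and BAT.

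**Figure D1:**
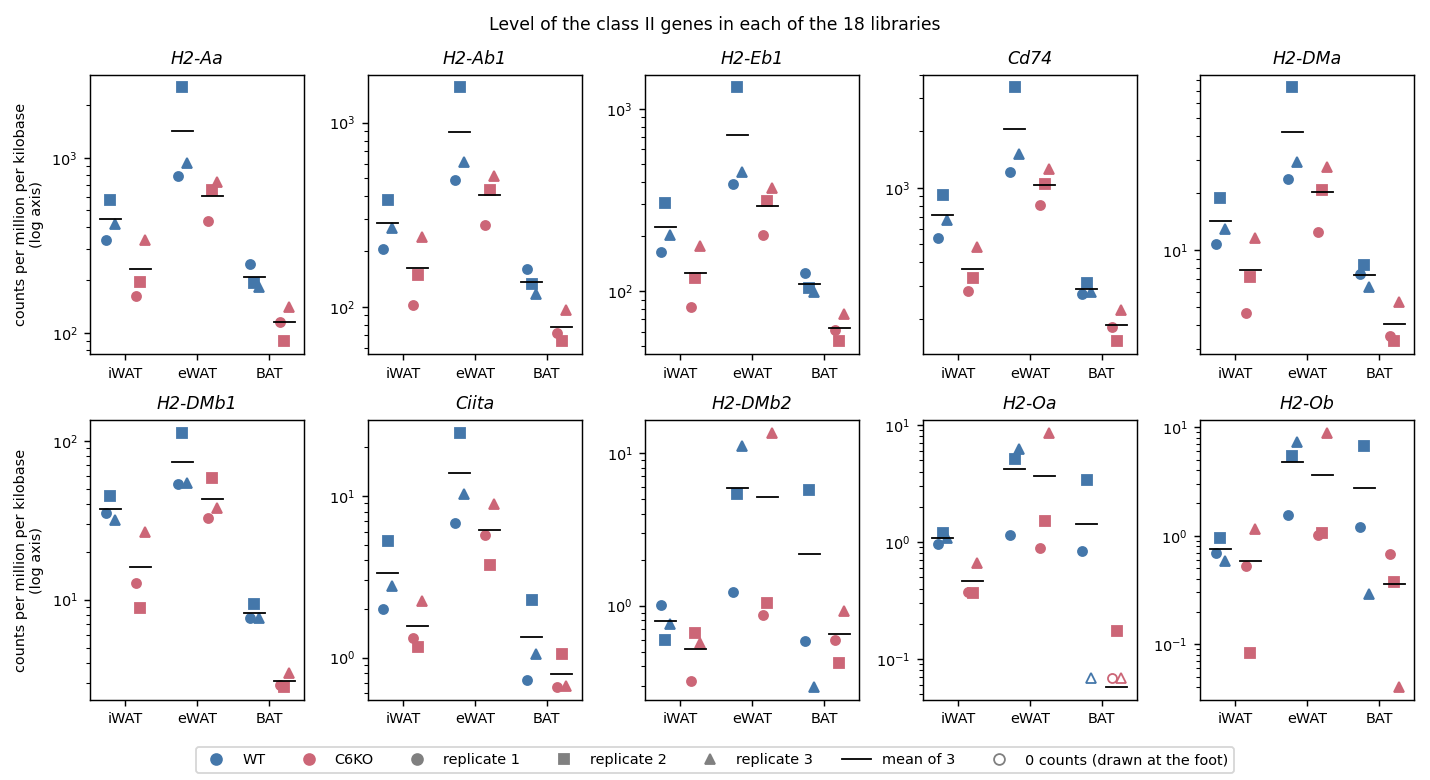
Level of each class II gene in every library, in CPM per kilobase on a log axis, by depot (WT blue, C6KO red, symbol shape for replicate number, black line for the mean of 3). WT replicate 2 of eWAT stands above all other libraries in 7 genes, while H2-DMb2, H2-Oa and H2-Ob peak in other libraries.

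In WT mice, 7 of the 9 members that could be compared were called higher in eWAT than in iWAT, against 12.8% of all 15866 genes tested in one edgeR fit of the 18 libraries. Calls needed a 1.5-fold or larger change and a p, adjusted by Benjamini and Hochberg's method over all genes tested, under 0.05. H2-Aa had 785, 2531 and 931 CPM per kilobase in eWAT and 340, 578 and 419 in iWAT. The depots did not overlap. Its log2 fold change was 1.67 (standard error 0.402, adjusted p = 0.00532), and Cd74 gave 1.53 (0.330, adjusted p = 0.00228). Ciita had the largest called difference, with 6.82, 24.5 and 10.3 against 2.01, 5.29 and 2.76, a log2 fold change of 2.05 (0.528, adjusted p = 0.00869). H2-Ab1 (1.63), H2-Eb1 (1.68), H2-DMa (1.56) and H2-DMb1 (0.98, adjusted p = 0.0490) were the other called genes. H2-Oa (1.94, adjusted p = 0.140) and H2-Ob (2.67, adjusted p = 0.0939) were not called, and H2-DMb2 was left out because its table entry used another transcript in iWAT. Without eWAT WT-2, 3 members were called (H2-Aa, H2-Eb1 and Cd74), against 10.2% of all genes called higher, and the estimate for H2-Aa was 0.95.

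BAT held the least of most class II transcripts. Against WT eWAT, 7 of 10 members were called lower in WT BAT, when 23.6% of all genes were. H2-Aa had 248, 191 and 184 CPM per kilobase in BAT, all below the lowest eWAT library. Its log2 fold change was -2.77 (standard error 0.419, adjusted p = 4.23e-05). Ciita gave -3.33 and H2-DMb1 -3.14, the largest 2 of the 7. H2-DMb2 (-1.39), H2-Oa (-1.51) and H2-Ob (-0.76) had adjusted p-values of 0.288, 0.202 and 0.568. Against WT iWAT, 4 of 9 members were called lower in BAT, with 18.7% of all genes. H2-DMb1 differed most, at 7.67, 9.45 and 7.68 in BAT and 35.1, 44.8 and 31.7 in iWAT, a log2 fold change of -2.16 (0.388, adjusted p = 0.000348). Cd74 (-1.31), H2-Aa (-1.10) and H2-Ab1 (-1.06) were the others, while H2-Eb1 (-1.03, adjusted p = 0.0518), Ciita (-1.28, adjusted p = 0.0690) and H2-DMa (-0.95, adjusted p = 0.0868) missed the threshold. H2-Oa (0.43, adjusted p = 0.749) and H2-Ob (1.90, adjusted p = 0.190) had estimates above 0 and were not called. The number called in BAT against iWAT moved between 2 (without iWAT WT-2) and 6 (without iWAT WT-1) as single libraries were left out. In these fits 16.9% and 16.6% of all genes were called lower. All 12 macrophage markers were called higher in eWAT than in iWAT and lower in BAT than in eWAT (medians 1.81 and -3.06). The depot order of the 7 class II genes called in BAT against eWAT moved with that of macrophage markers. H2-Oa and H2-Ob did not follow it between BAT and iWAT with all libraries in. Without BAT WT-2, their estimates there were -1.48 and -0.05. The part of macrophages in the depot order was not tested. In bulk tissue, fewer cells of a type and less RNA per cell cannot be told apart.

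The second question was whether C6KO mice had less class II RNA than WT mice within a depot. In each depot the estimate was below 0 for every member tested, but the only member past the threshold in any depot was H2-DMb1 in BAT. The median log2 fold change over the members was -0.82 in BAT, -0.90 in iWAT and -1.02 in eWAT, where the median over all genes tested was -0.03, 0.03 and -0.01. The 3 comparisons use separate libraries for their WT and C6KO groups.

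**Figure D2:**
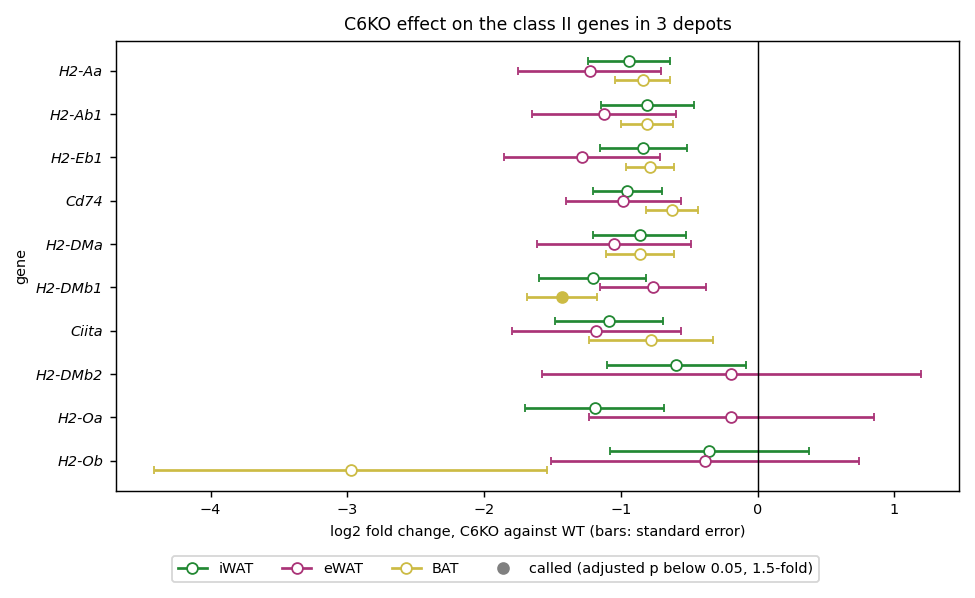
Log2 fold change of C6KO against WT for each class II gene (horizontal axis, with the standard error as bars) in iWAT, eWAT and BAT. All points lie left of 0 and only H2-DMb1 in BAT (-1.43) is filled as called, while H2-Ob in BAT (-2.98) has the widest bar.

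In iWAT, 0 of 10 members were called by edgeR, against 0.0206% of all genes called lower. At an unadjusted p below 0.05 with a 1.5-fold difference, 8 of 10 were lower, against 6.72% of all genes, and 3 were called by DESeq2 (H2-Aa, Cd74 and H2-DMb1), against 3.22%. In 4 of 10, every C6KO library lay below every WT library, as in 12.2% of all genes. H2-Aa, the alpha chain, had 379, 639 and 466 CPM in WT and 183, 217 and 375 CPM in C6KO iWAT, with C6KO-3 just under the lowest WT library. The log2 fold change was -0.94 (standard error 0.301, adjusted p = 0.206). Cd74 had 756, 1269.6 and 943 CPM in WT and 397, 463 and 674 CPM in C6KO, again without overlap, and gave -0.95 (0.251, adjusted p = 0.166).

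For H2-DMb1, the iWAT values were 44.4, 56.4 and 40.1 CPM in WT and 16.1, 11.3 and 33.6 CPM in C6KO. The groups were apart, by little at C6KO-3, and the log2 fold change was -1.21 (standard error 0.388, adjusted p = 0.217). H2-Oa, at 1.001, 1.23 and 1.11 CPM in WT and 0.392, 0.382 and 0.680 CPM in C6KO, rested on 7 to 21 counts per library and gave -1.19 (adjusted p = 0.286). H2-Ab1 (-0.81), H2-Eb1 (-0.83), H2-DMa (-0.86) and Ciita (-1.09) overlapped between genotypes, with C6KO-3 above WT-1 in each. H2-DMb2 (-0.60) and H2-Ob (-0.35) were the smallest estimates. Without C6KO-3, 6 of 10 members were called lower (H2-Aa, H2-Ab1, H2-Eb1, Cd74, H2-DMa and H2-DMb1), with 6.43% of all genes, where the full set of libraries had 3 genes called lower in all. The same fit called 11 of 12 macrophage markers, 5 of 6 endosomal processing genes and Ptprc, the pan-leukocyte gene, lower. It called 3 of 10 dendritic cell markers, 1 of 8 B cell markers, 0 of 8 T cell markers and 0 of 9 class I genes lower.

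In eWAT, 0 of 10 members were called, against 0.208% of all genes called lower. At an unadjusted p below 0.05, 0 were lower with a 1.5-fold difference, against 2.79% of all genes, and DESeq2 called 0, against 1.23%. H2-Aa had 960, 3152 and 1153 CPM in WT and 539, 799 and 909 CPM in C6KO eWAT. The groups did not overlap, but WT-2 stood well above all others and the gap between WT-1 and C6KO-3 was narrow. Its log2 fold change was -1.23 (standard error 0.523, adjusted p = 0.312). H2-Eb1, with 703, 2431 and 832 CPM against 374, 567 and 686 CPM, was the other member of 10 without overlap (-1.29, adjusted p = 0.337), when 11.2% of all genes had every C6KO library lower. Ciita had 42.0, 154 and 63.9 CPM in WT and 35.7, 23.1 and 56.1 CPM in C6KO, which overlapped (-1.18, adjusted p = 0.424). H2-Ab1 gave -1.12, H2-DMa -1.05, Cd74 -0.98 and H2-DMb1 -0.76.

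Without eWAT WT-2, 9 of 10 estimates moved towards 0 (H2-DMb2 went to -0.25) and their median was -0.38, with -0.50 for H2-Aa, -0.38 for Cd74 and -0.47 for Ciita. In that fit 0 members were called lower, against 0.0199% of all genes. The size of the eWAT difference therefore rested on that library. In WT-2 the 10 members summed to 13497 CPM, against 4338 and 5372 CPM in the other WT libraries, and they took 1.37% of all its counts. Other genes were high in the same library. Nlrc5, the transactivator of class I genes, had 130 CPM there and 42.5 and 51.4 CPM in the other WT libraries, and Psmb9, an immunoproteasome subunit, 84.8 CPM there and 25.6 and 28.0 CPM in the others. Ifng was counted at most 25 times in any library, and T cell markers summed to 111 CPM in WT-2, with 27.4 and 52.6 CPM in WT-1 and WT-3. Summed macrophage markers were 10216 CPM in WT-2 and 7976 and 7851 CPM in the others. The part of these genes in the class II values was not tested.

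BAT held the one called gene. H2-DMb1, the beta chain of the peptide-loading H2-DM dimer, had 8.66, 11.4 and 8.90 CPM in WT and 3.43, 3.31 and 3.99 CPM in C6KO BAT, on 67 to 129 and 29 to 41 counts. Every C6KO library was far below every WT library. It fell by 1.43 on the log2 scale (standard error 0.256, adjusted p = 0.0331), 2.69-fold lower in C6KO, and was the only one called of the 8 members tested, against 1.07% of all genes called lower. Leaving out any 1 of the 6 libraries took the adjusted p above the threshold, to between 0.0714 and 0.164, while the estimate stayed between -1.51 and -1.29.

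The 3 classical chains were close behind in BAT. H2-Aa had 246, 202 and 187 CPM in WT and 119, 92.4 and 143 CPM in C6KO, H2-Ab1 169, 148 and 126 against 78.5, 70.9 and 103 CPM, and H2-Eb1 186, 164 and 149 against 94.3, 81.3 and 113 CPM. None of these overlapped. The log2 fold changes were -0.84, -0.81 and -0.79, with standard errors of 0.200, 0.190 and 0.174, smaller than in the white depots, and adjusted p-values of 0.0910, 0.0870 and 0.0714. Cd74 (-0.62, adjusted p = 0.175) and H2-DMa (-0.86, adjusted p = 0.153) were also without overlap, which made 6 of 8 members, against 12.1% of all genes. These 6 were also below an unadjusted p of 0.05 with a 1.5-fold difference, as were 6.27% of all genes. DESeq2 called 5 members lower (H2-Aa, H2-Ab1, H2-Eb1, Cd74 and H2-DMb1), with 2.53% of all genes. Ciita (-0.78, adjusted p = 0.510) was counted 28 to 137 times in WT and 29 to 66 times in C6KO, and its groups overlapped. H2-DMb2 and H2-Oa failed the filter on low counts in BAT and were not tested. H2-Ob (-2.98, standard error 1.44, adjusted p = 0.466) rested on BAT WT-2, with 193 of its counts there and 22 and 7 in the other WT libraries, and was -0.98 without it.

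Whether C6KO changed class II genes by different amounts in different depots was tested as an interaction in one fit of all 18 libraries. In the 3 interaction tests, 0 of 10 members were called in either direction. Over all genes, 0% were called in each direction for eWAT against iWAT, 0.113% lower and 0.0693% higher for BAT against iWAT, and 0.485% lower and 0.0504% higher for BAT against eWAT. H2-Aa differed by -0.29 (standard error 0.554) between eWAT and iWAT and by 0.09 (0.556) between BAT and iWAT, and Cd74 by -0.02 (0.457) and 0.33 (0.458). These errors leave room for sizeable differences. H2-Oa had the lowest unadjusted p of all members, 0.0391 for BAT against eWAT (-4.11, standard error 1.82, adjusted p = 0.407), with 3 BAT libraries at 0 counts. It was the only member below an unadjusted p of 0.05 in any of the 3 tests, and DESeq2 called 0 members in each.

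Members differed in how they varied from library to library. Relative to H2-Aa in the same library, H2-Ab1 stayed between 0.639 and 0.812 counts per H2-Aa count, H2-Eb1 between 0.694 and 0.900 and Cd74 between 1.38 and 2.34, over libraries whose class II genes took from 0.0445% to 1.37% of all counts. The 2 chains of the mouse I-A molecule thus kept nearly 1 ratio in all depots and both genotypes. H2-DMa, with 52.1 to 79.4 counts per 1000 H2-Aa counts, was almost as steady. H2-DMb1 ranged more widely, from 27.9 to 117 per 1000, and was at most 56.3 in the BAT libraries. H2-Ob ranged from 0.680 to 84.2 per 1000, H2-DMb2 from 1.29 to 39.7 and H2-Oa from 0 to 16.6, with all 3 maxima in BAT WT-2.

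**Figure D3:**
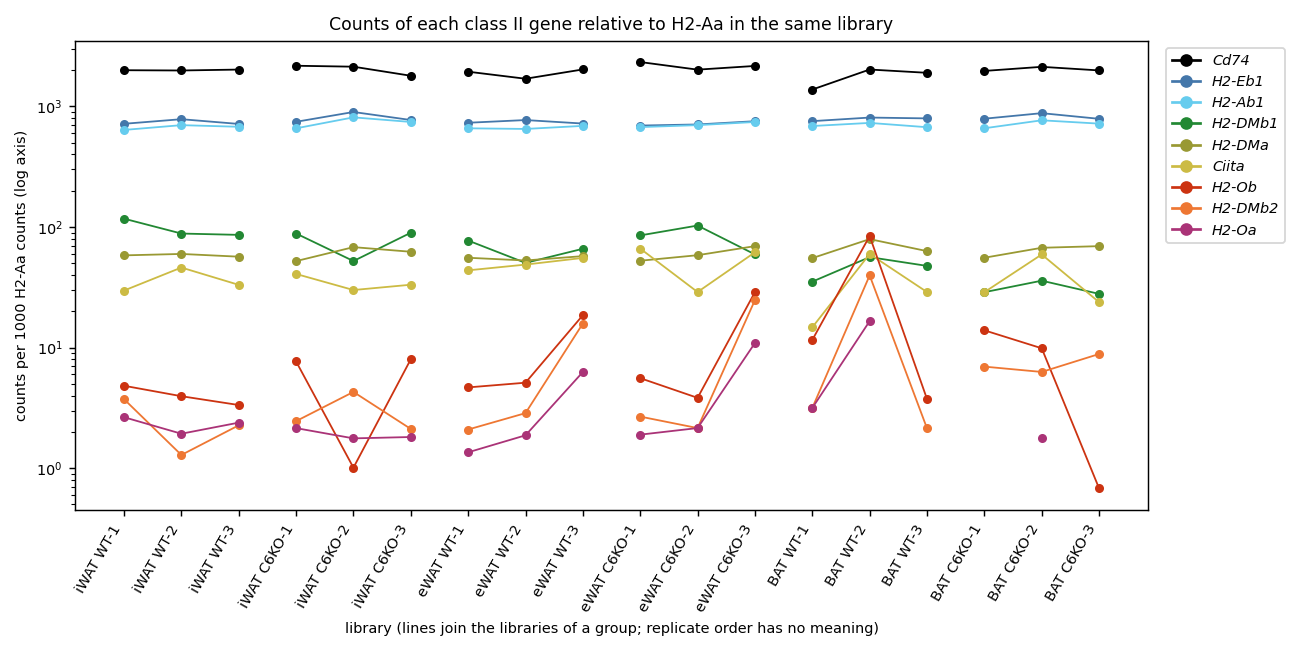
Counts of each class II gene per 1000 H2-Aa counts of the same library (log axis) for the 18 libraries, with lines joining the 3 libraries of a group. Cd74, H2-Eb1, H2-Ab1 and H2-DMa run almost level, while H2-Ob, H2-DMb2 and H2-Oa climb in eWAT WT-3, eWAT C6KO-3 and BAT WT-2; points at 0 are not drawn.

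The H2-O genes and H2-DMb2 were highest where B cell genes were highest. Summed over 8 B cell markers (among them Ms4a1, Cd79a, Cd79b, Pax5, Cd22, Blk and Fcrla), eWAT had 41.7, 114 and 257 CPM in WT and 31.5, 31.9 and 340.0 CPM in C6KO. BAT had 5.82, 113 and 5.999 CPM in WT and 2.98 to 5.44 CPM in C6KO, and iWAT 3.82 to 23.2 CPM over both genotypes. H2-Ob, the beta chain of H2-O, had 4.49, 16.1 and 21.4 CPM in WT and 3.003, 3.06 and 26.2 CPM in C6KO eWAT, and 2.84, 17.0 and 0.700 CPM in WT BAT. In eWAT of both genotypes and in WT BAT, its highest library was the one with the most B cell marker reads. H2-Oa had 1.30, 5.90 and 7.23 CPM in WT and 1.02, 1.72 and 9.92 CPM in C6KO eWAT, and H2-DMb2 2.01, 9.01 and 18.3 and 1.44, 1.72 and 22.5 CPM. The same libraries led in all 3 genes. Markers of lymph node stroma and follicles were raised there too, at 98.2 CPM in eWAT WT-3, 137 in eWAT C6KO-3 and 37.5 in BAT WT-2, where the other eWAT and BAT libraries had 4.70 to 31.5 CPM.

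**Figure D4:**
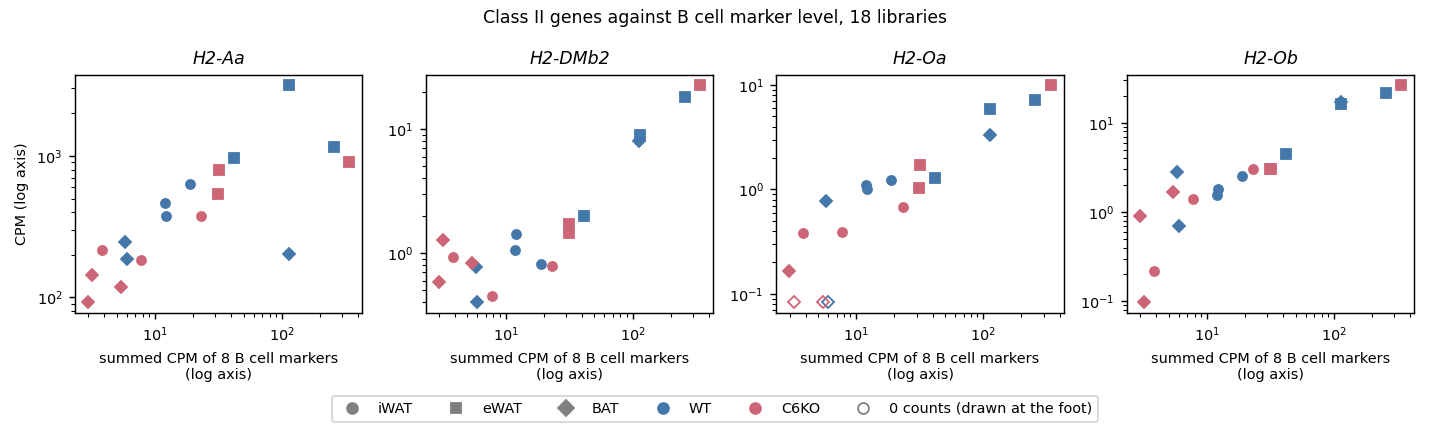
CPM of H2-Aa, H2-DMb2, H2-Oa and H2-Ob against the summed CPM of 8 B cell markers in the 18 libraries, both on log axes (shape for depot, WT blue, C6KO red, open symbols for 0 counts). H2-DMb2, H2-Oa and H2-Ob climb with the markers up to 340.0 CPM, and H2-Aa is low in BAT WT-2 despite 113 CPM of markers.

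After the mean of each depot and genotype was taken off log2 CPM, Pearson's r over the 18 libraries between a gene and the mean of the B cell markers was 0.88 for H2-DMb2, 0.75 for H2-Oa and 0.86 for H2-Ob. It was 0.30 for H2-Aa, 0.33 for H2-Ab1, 0.30 for H2-Eb1 and 0.41 for Cd74. The latter 4 had r between 0.96 and 0.99 with each other. The points share libraries and depth, and the grouping was seen in these values, so the figures describe these libraries only. They depended on eWAT WT-3, eWAT C6KO-3 and BAT WT-2, since without these 3 H2-DMb2 had 0.36, H2-Oa 0.30, H2-Ob 0.75 and H2-Aa 0.76. H2-Eb2, a further class II beta gene on chromosome 17 with a promoter of the same X and Y arrangement, had 383 counts in total over the 18 libraries and r of 0.96, or 0.88 without the 3. The pattern was not particular to B cell markers. H2-DMb2, H2-Oa and H2-Ob had r of 0.75, 0.61 and 0.59 with T cell markers and 0.63, 0.71 and 0.72 with dendritic cell markers. H2-Aa, H2-Ab1, H2-Eb1 and Cd74 had 0.55 to 0.71 and 0.68 to 0.76 with these lists. Without the 3 libraries, the T cell figures of H2-DMb2, H2-Oa and H2-Ob fell to 0.42, 0.13 and 0.18. Their dendritic cell figures fell to 0.41, 0.54 and 0.56. Those of H2-Aa, H2-Ab1, H2-Eb1 and Cd74 rose to 0.81 to 0.89 and 0.82 to 0.84. Over all 18 libraries, Ciita had 0.67 with B cell, 0.86 with T cell and 0.86 with dendritic cell markers. With macrophage markers, H2-Aa, H2-Ab1, H2-Eb1 and Cd74 had r of 0.57 to 0.68, H2-DMa 0.62 and H2-DMb1 0.72. Ciita, H2-DMb2, H2-Oa and H2-Ob had 0.15, 0.03, 0.02 and 0.18 with them, or 0.26, 0.37, 0.21 and 0.40 without the 3 libraries.

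In eWAT the C6KO estimates of H2-DMb2 (-0.19), H2-Oa (-0.19) and H2-Ob (-0.38) were the smallest of the 10, with standard errors of 1.39, 1.04 and 1.13. With WT-3 and C6KO-3 both left out, a choice made after seeing the data, they were -1.80, -1.39 and -1.77. The other 7 then lay between -0.86 and -1.74. In that fit 0 members were called lower, against 0.0134% of all genes. It kept WT-2, on which the size of the eWAT difference rested. H2-DMb2 had 2.01 CPM in WT-1 and 9.01 in WT-2, against 1.44 and 1.72 in C6KO-1 and C6KO-2. H2-Oa had 1.30 and 5.90 against 1.02 and 1.72 CPM. With WT-2 alone left out, the estimates of H2-DMb2, H2-Oa and H2-Ob were -0.25, -0.02 and -0.27.

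Genes whose level ran most like that of H2-Aa, H2-Ab1, H2-Eb1 and Cd74 were ranked among 12883 genes with at least 1 CPM on average in each depot, over the 18 libraries and with the depot means taken off. First came Mir5107 (r = 0.98), which lies inside Cd74 (chromosome 18, 60803849 to 60812652) on the same strand and so can share its reads. Next were Fcgr4 (0.94), an activating receptor for IgG on myeloid cells, Phf11b (0.93), Ccr2 (0.93), the chemokine receptor of inflammatory monocytes, Aoah (0.92), Cd86 (0.92), a costimulatory ligand on antigen-presenting cells, Aif1 (0.92), Ccl5 (0.90), Pld4 (0.90) and Ly86 (0.90). With the genotype means taken off as well, the first 10 included Psmb9 (0.96), Mir5107 (0.95), H2-T23 (0.95), Cd86 (0.92), Fcgr4 (0.91), Psmb8 (0.91), Tapbp (0.90), H2-L (0.90) and H2-D1 (0.90), of which H2-L and H2-D1 overlap in position. eWAT WT-2, described above, was among the points.

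The rest of the pathway was read from lists of genes by role. The machinery on the class II promoter, of Rfx5, Rfxap, Rfxank, Creb1, Nfya, Nfyb and Nfyc, had 0 of 7 genes called by genotype in any depot with edgeR and 0 at an unadjusted p below 0.05 with a 1.5-fold difference, with medians of 0.15, -0.17 and -0.0036 in iWAT, eWAT and BAT. The interferon gamma pathway likewise had 0 of 7 tested genes by either measure, with medians of 0.11, -0.14 and -0.21. Ifng itself was too low to test. Endosomal processing had 0 of 6 called in iWAT and in eWAT (3 and 1 lower by the unadjusted measure) and 2 of 6 in BAT, both lower. Ctss, cathepsin S, the protease that trims the invariant chain, had 132, 104 and 91.3 CPM in WT and 24.5, 15.9 and 27.6 CPM in C6KO BAT. The groups were wide apart, and Ctss fell by 2.27 on the log2 scale (standard error 0.238, adjusted p = 0.00432). Lgmn, an endosomal asparagine-specific protease, fell by 0.87 (0.156, adjusted p = 0.0340). Among the 3 genes of class II surface turnover, Cd83, which stabilizes class II at the surface, fell by 1.68 in BAT (0.235, adjusted p = 0.0124), with 13.4 to 14.9 CPM in WT and 3.81 to 5.56 in C6KO. March1, a ubiquitin ligase that removes class II from the surface, gave -1.52, -0.66 and -1.28 in iWAT, eWAT and BAT without being called. March8, a related ligase, gave 0.44, 0.19 and 0.29, also not called. The costimulatory ligands Cd80, Cd86, Cd40 and Icosl had 0 called of 4, 4 and 3 tested, and 1, 0 and 1 lower by the unadjusted measure.

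**Figure D5:**
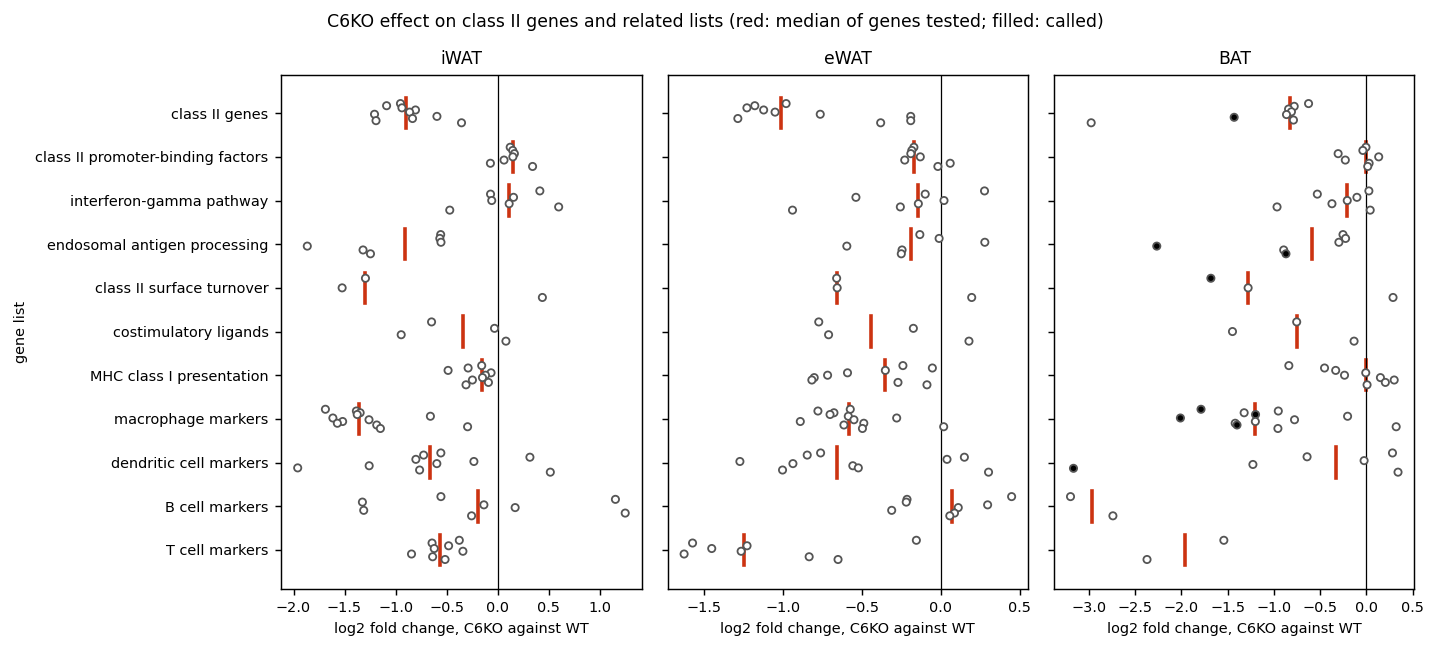
Log2 fold change of C6KO against WT (horizontal axis) for each tested gene of the class II set and of related lists in the 3 depots, with the list median in red and called genes filled. All class II genes lie left of 0, as do 12, 11 and 11 of the 12 macrophage markers in iWAT, eWAT and BAT. With all libraries kept, called genes of these lists appear in BAT only.

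Class I presentation, with 0 of 9 called in any depot and 0, 0 and 1 lower by the unadjusted measure, had medians of -0.16, -0.35 and -0.01, nearer to 0 than those of the class II genes. Single genes of that list reached -0.82 (Tap1 in eWAT) and -0.84 (B2m in BAT). The difference between the lists was not tested. Macrophage markers were mostly lower in C6KO as well. Of 12 markers, 4 were called in BAT (median -1.20), 0 in iWAT (median -1.36) and 0 in eWAT (median -0.58), and 10, 11 and 6 were lower by the unadjusted measure. In BAT Adgre1, Cd68, Lyz2 and C1qc fell by 1.79, 2.01, 1.40 and 1.20 on the log2 scale. Their summed level was 2122 to 2445 CPM in WT and 573 to 1593 in C6KO iWAT, 7851 to 10216 and 4877 to 6548 in eWAT, and 819 to 1092 and 318 to 487 in BAT. Dendritic cell markers had 0 of 10, 0 of 10 and 1 of 6 called and 3, 1 and 2 lower unadjusted. Itgax fell by 3.17 on the log2 scale in BAT, but the list medians were -0.66, -0.66 and -0.33, and Zbtb46 (0.52, 0.30 and 0.34) and Cd209a (0.32, 0.15 and 0.28) had estimates above 0 in each depot. The sums were 211 to 242 CPM in WT and 77.7 to 159 in C6KO iWAT, 733 to 782 and 509 to 611 in eWAT, and 58.4 to 82.1 and 33.0 to 40.7 in BAT. Neither B cell nor T cell markers had a called gene (0 of 8, 0 of 8 and 0 of 2 for each), and by the unadjusted measure B cell markers had 0, 0 and 1 lower and T cell markers 0, 1 and 0. Ptprc, the pan-leukocyte gene, had estimates of -1.31, -0.61 and -1.94, not called. Adipocyte and endothelial markers mostly had estimates above 0 in C6KO eWAT. Of 6 adipocyte markers, 1 was called higher there (Plin1, 0.62, adjusted p = 0.0468), against 0.537% of all genes, and the list medians were 0.33, 0.57 and 0.04 in iWAT, eWAT and BAT. In BAT 1 was called lower, Lep, which fell by 3.35. Of 5 endothelial markers, 0 were called in any depot, with medians of 0.02, 0.43 and 0.21. In eWAT every C6KO library lay above every WT library for 5 of the 6 adipocyte and 5 of the 5 endothelial markers, against 12% of all genes, with summed endothelial levels of 512 to 580.2 CPM in WT and 728 to 857 in C6KO. The part of these cell types in the class II differences was not tested, and fewer such cells in C6KO tissue cannot be told apart here from less class II RNA in each.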

How the data were processed

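Poly(A) RNA was sequenced by the authors (Illumina NextSeq), who aligned reads to mm10 with STAR and counted those on exons with HOMER, condensing each gene to 1 transcript. They deposited raw counts, 1 table per depot of 25124 genes. The submitters' processing notes name mm10, HOMER and DESeq2. Strandedness and tool versions are not given in the sources used here. For 2619 genes the transcript differs between tables, of the members only H2-DMb2. No test of that gene between iWAT and the other depots is therefore reported, and its levels there rest on different transcripts. All 18 libraries were grouped by depot and genotype from their labels, and 0 value columns lacked a sample.

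The deposited counts were tested with edgeR 4.0.16 (limma 3.58.1, R 4.3.3): filterByExpr, TMM and robust quasi-likelihood tests, per depot for C6KO against WT (14533, 14889 and 13595 genes tested in iWAT, eWAT and BAT) and in one fit of 6 group means for interactions and WT depots (15866 genes). Calls needed a p below 0.05, Benjamini-Hochberg adjusted over all genes tested, and a 1.5-fold or larger change. CPM were TMM-normalized within a depot, and CPM per kilobase over the 18 libraries. The scripts were tested on simulated data with 200 genes changed by 2 on the log2 scale. Most genotype differences of the members were smaller, and recovery at their size was not tested. Alternatives were DESeq2 1.42.0, its size factors in edgeR, total-count scaling, no filter, at least 10 counts in every library, no fold minimum, the replicate number as a block, all libraries in one fit, genes with the same transcript in the 3 tables, and leaving out each library. Fits without the libraries with most B cell marker reads in 3 groups were added after seeing the data. Promoter windows came from RefSeq (GRCm38.p6). Plots used Python 3.11.15 and matplotlib 3.10.9.

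The members and gene lists were chosen with earlier results of these data known. The genes named were all members, list genes called in any comparison or given as examples, and the 10 genes most like the mean of H2-Aa, H2-Ab1, H2-Eb1 and Cd74 under each centring, apart from an item that is not reported here. Nlrc5, Psmb9 and Ifng in eWAT WT-2 and H2-Eb2 were named after their values were seen.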

Additional observations from a re-analysis of the deposited data

How the results depend on the processing

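Other processing left the direction of most class II estimates as reported and moved mainly the calls. Members called lower in C6KO went from 0 to 3 in iWAT and from 1 to 5 in BAT by DESeq2, from 1 to 0 in BAT (2.71% of all genes lower) with all 18 libraries in one fit (H2-DMb1 adjusted p = 0.0806), and ranged from 0 to 6 in iWAT (0.0202% to 6.43% of all genes) and were 0 in BAT (0.173% to 1.05%) with single libraries left out. WT BAT against WT iWAT had 7 members called lower by DESeq2 (18.001% of all genes), from 4, and 2 to 6 with single libraries left out (15.9% to 19.4%). WT eWAT against WT iWAT had 3 to 7 called higher (10.2% to 11.2%) and WT BAT against WT eWAT 7 to 9 called lower (21.7% to 24.9%) on leaving out single libraries. Correlations between same-numbered libraries ran from -0.60 to 0.16 between genotypes of a depot and from -0.07 to 0.22 between depots of a genotype. Some pairs of groups, such as WT eWAT and WT iWAT (0.09, 0.22 and 0.04), were weakly above 0 in all 3 numbers. The labels do not tie a number to 1 mouse, so the numbers were not taken as pairs. With the replicate number as a block, H2-DMb1 in eWAT was called (1 member, -0.72, adjusted p = 0.0211, with 0.779% of all genes lower) and H2-DMb1 in BAT was not (0 members, adjusted p = 0.0915, with 0.743%). Without the block, 0.208% and 1.07% of all genes were called lower in these depots. In iWAT the block took that share from 0.0206% to 0.372%.

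Direction turned for H2-DMb2, H2-Oa and H2-Ob only. With single libraries left out, C6KO estimates ranged from -1.30 to 0.16 for H2-Ob in iWAT and from -2.62 to 0.63 for H2-DMb2, -1.80 to 0.28 for H2-Oa and -2.21 to 0.070 for H2-Ob in eWAT. WT BAT against WT iWAT ranged from -1.48 to 1.011 for H2-Oa and from -0.052 to 2.44 for H2-Ob, and was -1.47 and -0.045 without eWAT WT-3, eWAT C6KO-3 and BAT WT-2, the libraries with most B cell marker reads in their groups, a choice made after seeing the data. In that set, 6 members were called higher in WT eWAT than in WT iWAT (12.2% of all genes), 3 lower in BAT than in iWAT (19.0%) and 9 lower in BAT than in eWAT (23.7%). Over all genes, DESeq2 called 493 lower in C6KO iWAT, 190 in eWAT and 383 in BAT, against 3, 31 and 145 by edgeR. In BAT, H2-DMb2 and H2-Oa were too shallow to test.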
